A study of Mus musculus with 6 samples.

Results

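The genes described here are 9 transcription factor genes that set and maintain the identity of intestinal epithelium, namely Cdx1, Cdx2, Hnf4a, Hnf4g, Gata4, Gata6, Klf4, Klf5 and Elf3. They were taken by gene symbol, and all 9 were found among the 24421 gene rows of each sample. RNA was sequenced from whole colon tissue of C57BL/6 mice, with an age label of 7 weeks, in 3 samples with chronic colitis induced by dextran sulfate sodium (DSS) and 3 control samples. DSS is taken up with drinking water and damages the epithelial lining of the colon. The labels give neither its dose nor its schedule, and none of them ties a sample to an animal of its own, so the p-values reflect only how far these samples differ from each other, which may be technical variation. All mice carried the same strain label, and no transgene or deletion is named.

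Intestinal epithelium renews from crypt stem cells, and a small set of factors keeps the enhancers of its genes active in cells of every lineage. The caudal-type homeobox factors Cdx1 and Cdx2 establish the intestinal rather than the gastric programme. The nuclear receptors Hnf4a and Hnf4g act together on genes of the absorptive brush border and of lipid handling, and Gata4 and Gata6 add regional identity, Gata4 in the proximal small bowel and Gata6 along the whole gut. Klf5 is typical of dividing crypt cells and Klf4 of differentiated cells and goblet cells, while Elf3 is an ETS factor restricted to epithelia. Since the tissue was bulk colon, fewer epithelial cells and less RNA per epithelial cell cannot be told apart.

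Levels are in FPKM, fragments for each kilobase of a transcript, normalised to the mapped fragments of a sample, so that genes can be compared per length. Differences were taken on the log2(FPKM + 1) scale, where changes of low genes appear smaller than they are. A gene was tested where at least 3 samples reached 1 FPKM, which 8 of the 9 factors and 12348 genes in all did. A gene was called where limma, fitted over all tested genes, gave a Benjamini-Hochberg adjusted p under 0.05. Read depth is unknown. Per sample, FPKM added up to 609544 at the lowest and 678076 at the highest. The DSS samples were not alike. On the first principal component DSS 1 scored -18.98, DSS 2 scored -51.17 and DSS 3 scored -47.53, whereas the control samples lay between 38.13 and 39.90. The housekeeping gene Gapdh was listed at 0, 21.4 and 36.1 FPKM in DSS samples 1, 2 and 3, against 2.00, 0.117 and 0.145 FPKM in control samples 1, 2 and 3, so a 0 or a low value in these files may be a failed estimate. None of the 9 factors was listed at 0 in any sample, but the low values of Gata4 are open to the same fault.

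The promoter sequences of Cdx2 and Hnf4a are shown because these were the factors with the largest difference in each direction. Each run holds 250 bases before and 50 bases after a RefSeq transcript start (build GRCm38.p6), 5′ to 3′ on the gene's own strand, and the capitals mark matches to the short motifs named next.
Cdx2 (chr5:147307200-147307499, minus strand): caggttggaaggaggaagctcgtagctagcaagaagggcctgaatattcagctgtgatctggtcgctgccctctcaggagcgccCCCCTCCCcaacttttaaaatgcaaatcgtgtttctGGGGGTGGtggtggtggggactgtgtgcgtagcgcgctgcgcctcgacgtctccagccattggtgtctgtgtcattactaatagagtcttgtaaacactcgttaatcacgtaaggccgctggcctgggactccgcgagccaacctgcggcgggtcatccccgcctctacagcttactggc
Hnf4a upstream start (chr2:163506607-163506906, plus strand): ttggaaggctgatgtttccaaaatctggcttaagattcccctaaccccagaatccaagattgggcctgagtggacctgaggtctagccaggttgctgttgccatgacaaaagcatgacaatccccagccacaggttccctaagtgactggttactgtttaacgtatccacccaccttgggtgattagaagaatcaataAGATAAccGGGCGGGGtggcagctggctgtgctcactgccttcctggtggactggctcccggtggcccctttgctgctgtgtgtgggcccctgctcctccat
Hnf4a downstream start (chr2:163546905-163547204, plus strand): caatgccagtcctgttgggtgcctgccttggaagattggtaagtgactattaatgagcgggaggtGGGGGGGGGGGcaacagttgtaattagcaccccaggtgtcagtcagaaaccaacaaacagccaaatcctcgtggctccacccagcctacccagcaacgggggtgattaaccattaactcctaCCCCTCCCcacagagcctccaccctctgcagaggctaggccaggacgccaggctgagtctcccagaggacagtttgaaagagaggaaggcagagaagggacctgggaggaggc

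A total of 5 motifs were sought on both strands of the 32817 promoter windows in the table. The GATA motif AGATAA, found in 11.2% of windows, was present at the upstream Hnf4a start from base 199. The KLF motif CCNCNCCC, whose matches may overlap one another, was present in all 3 windows shown and in 49.5% of all windows. The CDX motif TTTATNG (10.9% of windows), the HNF4 motif CAAAGTC (4.44%) and the ETS motif AGGAAGT (9.35%) were in none of the 3. These matches describe letters in the window and not binding. The deposited values are summed per gene, so transcripts from the upstream and downstream Hnf4a starts cannot be told apart.

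Apart from Gata4, the factors were read at 5.01 FPKM or more in every sample, and Cdx1, Elf3, Klf4 and Hnf4a were the most abundant in both groups. In DSS colon the order was Cdx1, Elf3, Klf4, Hnf4a, Cdx2, Klf5, Gata6, Hnf4g and Gata4. In control colon it was Elf3, Cdx1, Klf4, Hnf4a, Klf5, Cdx2, Gata6, Hnf4g and Gata4. Many neighbours were not separated by their spread. The ranges of Klf4 and Hnf4a, of Cdx2 and Klf5, and of Gata6 and Hnf4g overlapped in DSS colon, and those of Elf3, Cdx1, Klf4 and Hnf4a overlapped from neighbour to neighbour in control colon. Cdx2 was the factor that lay above Klf5 by its mean in DSS colon and below it, with no overlap, in control colon.

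**Figure D1:**
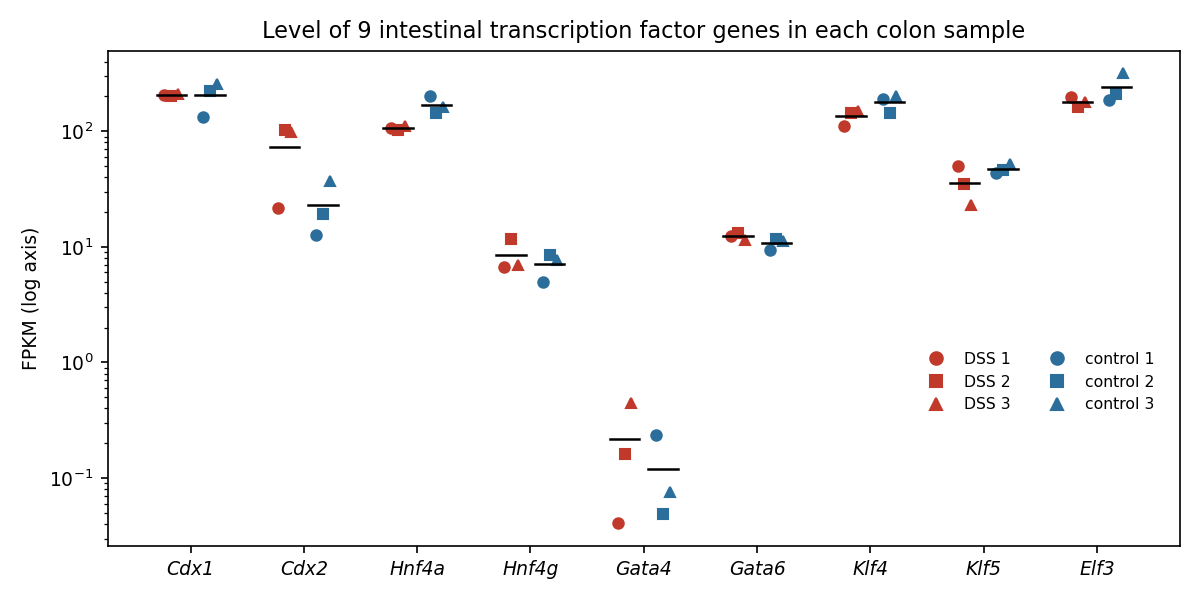
FPKM of the 9 factors in each sample on a log axis, with DSS in red and control in blue, replicates by marker shape and means as bars. Hnf4a lies lower in all 3 DSS samples, whereas Cdx2 is at 102 and 97.6 FPKM in DSS 2 and DSS 3 and at 21.5 FPKM in DSS 1, inside the control range.

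None of the 8 tested factors was called, in either direction (limma), and 1 had an unadjusted p under 0.05. Over all tested genes 8.90% were called, 6.34% higher and 2.56% lower, and 3493 of 12348 had an unadjusted p under 0.05. The counts of marker genes at an unadjusted p under 0.05 given further on can be read against that share. By log2 fold change 4 factors were higher and 4 lower, from -0.64 for Hnf4a to 1.48 for Cdx2. Their median was -0.16, against 0.13 over all tested genes. The 783 higher and 316 lower calls over all genes became 529 higher and 513 lower when FPKM was rescaled by the median of ratios, which moved the median of all genes from 0.13 to 0.00. Each fold change below can be read against that shift.

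Neither homeobox factor was called, and Cdx2 was the one with high values in DSS 2 and DSS 3. Cdx1 (chromosome 18, 61018862 to 61036199 in GRCm38) had 205, 201 and 211 FPKM in DSS samples 1, 2 and 3, against 133, 222 and 256 FPKM in control samples 1, 2 and 3. The DSS samples lay within the control range. DSS over control, the log2 fold change was 0.06 ± 0.24 (SE), with a 95% interval from -0.50 to 0.62 and adjusted p = 0.891 (limma), and its sign turned under 2 of the rescalings and without control 1. Cdx2 (chromosome 5, 147300805 to 147307270) had 21.5, 102 and 97.6 FPKM in DSS samples 1, 2 and 3, against 12.6, 19.4 and 37.0 FPKM in control samples 1, 2 and 3. DSS 2 and DSS 3 stood above all control samples and DSS 1 among them. This gave a log2 fold change of 1.48 ± 0.66 (SE), with a 95% interval from -0.09 to 3.05 and adjusted p = 0.196 (limma). Without DSS 1 it was 2.20 ± 0.40 (SE) and passed (adjusted p = 0.0157, and 0.0157 to 0.422 over all alternatives).

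Hnf4a, the nuclear receptor that carries much of the absorptive programme, showed the smallest p of the set. It (chromosome 2, 163506808 to 163572910) had 107, 103 and 111 FPKM in DSS samples 1, 2 and 3, against 203, 143 and 161 FPKM in control samples 1, 2 and 3. The groups did not overlap, as was the case for 35.1% of tested genes, and the DSS samples were close to each other. The level averaged 107 ± 3.70 FPKM in the DSS samples and 169 ± 30.7 FPKM in the control samples (SD, n = 3 each). On the log2 scale Hnf4a differed by -0.64 ± 0.16 (SE), with a 95% interval from -1.02 to -0.26, which corresponds to 0.642 times the control level. Its p of 0.00472 ranked 1132 among the tested genes and became 0.0515 after Benjamini-Hochberg adjustment (limma). It passed with upper-quartile rescaling (0.0407) and with rescaling by the median of ratios (0.0436). Its adjusted p ran from 0.0407 to 0.277 over all alternatives (limma), the highest in the fit relative to the epithelial markers described below. Its partner Hnf4g (chromosome 3, 3508030 to 3658052) was far lower, at 6.76, 11.7 and 6.90 FPKM in DSS samples 1, 2 and 3, against 5.01, 8.58 and 7.63 FPKM in control samples 1, 2 and 3. The groups overlapped, and Hnf4g differed by 0.22 ± 0.27 (SE) on the log2 scale, with a 95% interval from -0.40 to 0.84 and adjusted p = 0.633 (limma), or by -0.018 without DSS 2.

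Of the GATA factors Gata6 was read in every sample with overlapping ranges, and Gata4 did not exceed 0.447 FPKM in any sample. Gata6 (chromosome 18, 11052064 to 11085635) had 12.3, 13.3 and 11.5 FPKM in DSS samples 1, 2 and 3, against 9.33, 11.8 and 11.3 FPKM in control samples 1, 2 and 3. The ranges overlapped, and the interval of the log2 fold change was narrow, from -0.18 to 0.54 around 0.18 ± 0.15 (SE, adjusted p = 0.479, limma). Gata6 shares 93 exonic bases with 1010001N08Rik on the opposite strand, which had 2.67 to 4.16 FPKM in the DSS samples and 1.58 to 2.40 FPKM in control colon. Within that stretch, out of 6508 exonic bases of Gata6, reads of the pair cannot be told apart without strand. Gata4 (chromosome 14, 63198922 to 63271692) had 0.0407, 0.162 and 0.447 FPKM in DSS samples 1, 2 and 3, against 0.236, 0.0488 and 0.0762 FPKM in control samples 1, 2 and 3. It stayed under the filter and was not tested, and the groups overlapped.

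The Krüppel-like factors and Elf3 had lower means in DSS colon, and none of them was called. Klf4 (chromosome 4, 55527143 to 55532466) had 111, 144 and 149.6 FPKM in DSS samples 1, 2 and 3, against 191, 142 and 201 FPKM in control samples 1, 2 and 3. Control 2 lay inside the DSS range. Klf4 differed by a log2 fold change of -0.40 ± 0.19 (SE), with a 95% interval from -0.84 to 0.05 and adjusted p = 0.222 (limma). Klf5 (chromosome 14, 99298691 to 99315036) had 49.8, 34.9 and 23.0 FPKM in DSS samples 1, 2 and 3, against 43.3, 46.1 and 52.2 FPKM in control samples 1, 2 and 3. DSS 2 and DSS 3 were below every control sample and DSS 1 was within their range. For Klf5 the log2 fold change was -0.45 ± 0.27 (SE), with a 95% interval from -1.07 to 0.17 and adjusted p = 0.309 (limma). Elf3 (chromosome 1, 135253575 to 135258568) had 196, 162 and 179 FPKM in DSS samples 1, 2 and 3, against 188, 212 and 317 FPKM in control samples 1, 2 and 3. DSS 1 overlapped the controls, and control 3 was the highest sample. For Elf3 the log2 fold change was -0.38 ± 0.21 (SE), with a 95% interval from -0.88 to 0.12 and adjusted p = 0.283 (limma). Elf3 shares 162 exonic bases with an antisense gene, Gm26642, that was not analysed here.

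**Figure D2:**
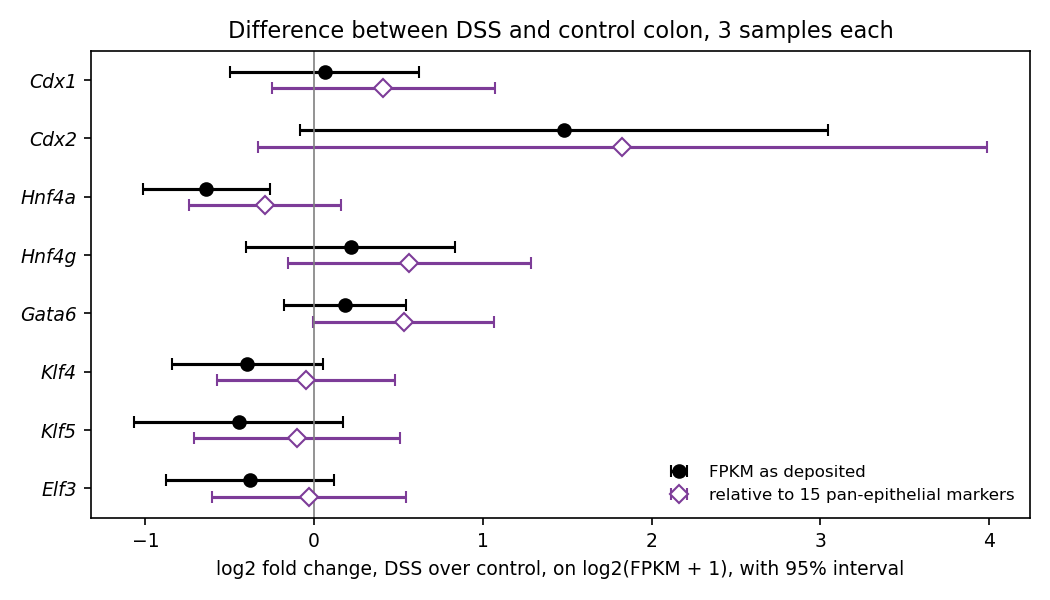
log2 fold change of each tested factor, DSS over control, with 95% intervals from limma, on FPKM as deposited (black) and relative to the mean of the 15 pan-epithelial markers in the same sample (purple). The interval of Hnf4a, from -1.02 to -0.26, lies below 0 on FPKM as deposited and spans 0 relative to the markers, and that of Cdx2 is the widest on both scales. Over all tested genes the median was 0.13 on FPKM as deposited and 0.48 relative to the markers.

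Markers of gut epithelium lay lower on average in the DSS samples. Over 15 such markers, most of them broadly epithelial like Epcam and Cdh1 but with Krt20 and Lypd8 of surface cells and Prom1 of crypt cells among them, the mean log2(FPKM + 1) was 8.26, 8.04 and 8.16 in DSS 1, 2 and 3, against 8.71, 8.36 and 8.43 in control 1, 2 and 3, a difference of -0.35. Their summed level was 16539 to 28981 FPKM in the DSS samples and 28675 to 34050 FPKM in control colon. Of the 15, Krt8, Krt19 and Cldn3 fell and Prom1 and Fxyd3 rose, and each of these calls was lost in 3 to 8 of 15 alternatives (adjusted p up to 0.133, limma). The share called was 33.3%, against 8.90% over all tested genes. Krt8, a simple epithelial keratin with a near-identical pseudogene, had 2751, 2405 and 2720 FPKM in DSS samples 1, 2 and 3, against 5592, 4208 and 4088 FPKM in control samples 1, 2 and 3, and lost its call when DSS 2, DSS 3 or any control was left out (adjusted p up to 0.0872, limma). Lypd8, an anti-flagellin surface protein, was the most abundant marker and had 9130 to 20961 FPKM in the DSS samples and 17924 to 19933 FPKM in the control samples.

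Relative to these markers none of the 8 tested factors was called either, against 24.1% of all tested genes, 22.5% higher and 1.62% lower. On this scale the 95% interval of each of the 8 spanned 0 (limma), and the median log2 fold change over all tested genes was 0.48. Hnf4a stood at -0.29 ± 0.21 (SE), with a 95% interval from -0.74 to 0.16 and adjusted p = 0.277 (limma). Klf4 stood at -0.048, Klf5 at -0.10 and Elf3 at -0.033. Cdx2 stood at 1.83 ± 0.84 (SE, adjusted p = 0.158, limma) and at 2.60 ± 0.42 (SE, adjusted p = 0.000838) without DSS 1. Cdx1 stood at 0.41, Hnf4g at 0.56 and Gata6 at 0.53. With Epcam, Cdh1 and Krt8 as the only markers, Hnf4g (0.85, adjusted p = 0.0495) and Gata6 (0.81, adjusted p = 0.0226) passed, and Klf4, Klf5 and Elf3 turned positive. These 3 markers were lower in DSS colon, by -0.43, -0.66 and -0.81, and subtracting their mean raised every gene alike. The share of all tested genes called with these 3 markers is not available here, so the 2 calls cannot be set against it. Whether the epithelial share of the tissue accounts for the lower Hnf4a was not tested.

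Of 12 tested leukocyte markers 7 rose and 0 fell, so that 58.3% were called, against 8.90% over all tested genes. S100a8, Cd53, Tyrobp and Fcer1g kept the call under all 15 alternatives. The list summed to between 2876 and 4218 FPKM in the DSS samples and between 151 and 225 FPKM in the control samples. S100a8, a calprotectin subunit of neutrophils, made up most of the sum in the DSS samples. Cd52, a lymphocyte surface antigen, had 94.2 to 214 FPKM in the DSS samples and 37.3 to 74.9 FPKM in control colon and was not called (adjusted p = 0.0788, limma). The B cell receptor gene Cd79a had 39.1, 3.68 and 2.04 FPKM in DSS samples 1, 2 and 3, against 10.8, 6.13 and 17.1 FPKM in control samples 1, 2 and 3. Without DSS 1, Cd79a (adjusted p = 0.0413, limma) and the macrophage receptor gene Csf1r (0.0479) were called lower. None of 11 smooth muscle markers was called (limma, 6 at an unadjusted p under 0.05), and they summed to 2044, 1413 and 3947 FPKM in DSS samples 1, 2 and 3, against 4128 to 5180 FPKM in control colon. Tagln and Actg2 were the most abundant of them. Without DSS 3, the DSS sample with the highest sum, 9 of the 11 were called lower, Tagln and Actg2 among them. Over all 12348 tested genes 163 were called lower in that fit. Tagln and Acta2 were called lower with upper-quartile rescaling and with rescaling by the median of ratios, where 467 and 513 of all tested genes were. None of 10 fibroblast markers (2 at an unadjusted p under 0.05) or 10 endothelial markers (1) was called (limma), and Dcn and Col3a1, and Pecam1 and Cldn5, were the most abundant by the mean over all samples. Without DSS 2 the collagen genes Col1a1, Col1a2 and Col3a1 and the endothelial cadherin gene Cdh5 were called higher, without DSS 1 Fbln1 was called lower, and Cldn5 was called lower under 2 of the rescalings. Of all 12348 tested genes 689 were called higher without DSS 2 and 606 lower without DSS 1. Fibroblast markers summed to between 676 and 1215 FPKM in the DSS samples and between 656 and 797 FPKM in control colon, and endothelial markers to between 30.7 and 57.7 FPKM in the DSS samples and between 43.9 and 49.9 FPKM in control colon. Klf4 is also expressed by endothelial cells and macrophages, and their part in its level was not tested.

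Markers of other epithelia and of the serosa, whose cells can express these factors, were mostly low. Of 13 squamous markers 3 were tested and none called (limma, 0 at an unadjusted p under 0.05), and the keratins Krt5 and Krt4 stood at or below 1.41 FPKM in every sample. In DSS 1 and control 1, Krt14 had 3.59 and 2.33 FPKM, against 0.499 to 1.17 FPKM in the other samples. Krt13 had 1.52 and 2.14 FPKM there and Krt6a 1.69 and 0.700 FPKM, against at most 0.232 FPKM elsewhere. Krt10, at 1.40 and 1.32 FPKM, was lowest in DSS 1 and control 1. The squamous sum was 29.2 to 44.8 FPKM in the DSS samples and 10.98 to 110.2 FPKM in control colon, most of it Sprr1a, which was called higher without control 1, its highest sample. Gata6 also marks mesothelium and resident peritoneal macrophages, and of 10 markers of these 5 were tested. The share called was 20.0%, against 8.90% over all tested genes. It was Selp, an adhesion receptor also made by endothelium, that rose (adjusted p = 0.0352, limma, lost in 5 of 15 alternatives). The others that were tested, Icam2 among them, were not called, and the list summed to between 9.61 and 25.0 FPKM in the DSS samples and between 9.16 and 23.6 FPKM in control colon. Of 15 stomach and small bowel markers Gkn1, Gkn2, Gif, Tff1, Defa24 and Otop3 were listed at 0 in all samples. The 3 tested were not called (limma, 3 at an unadjusted p under 0.05), and the list summed to between 23.4 and 84.2 FPKM in the DSS samples and between 17.5 and 26.2 FPKM in control colon. Slc10a2, the ileal bile acid transporter, had 6.31, 62.4 and 14.1 FPKM in DSS samples 1, 2 and 3, against 2.05, 1.49 and 1.61 FPKM in control samples 1, 2 and 3 (adjusted p = 0.059, limma), and passed without DSS 1, without DSS 2 and with a pseudocount of 0.1. Fabp6, an ileal bile acid binding protein gene, had 13.3, 15.7 and 5.60 FPKM in DSS samples 1, 2 and 3, against 5.02, 3.87 and 7.01 FPKM in control samples 1, 2 and 3, and passed without DSS 3 (adjusted p = 0.043, limma). The Paneth cell lysozyme gene Lyz1, of which a near-identical copy exists, had 12.2, 4.92 and 2.67 FPKM in DSS samples 1, 2 and 3, against 14.1, 11.6 and 17.1 FPKM in control samples 1, 2 and 3, and was called lower without DSS 1 (adjusted p = 0.00709, limma). The part of these cells in the level of Cdx2 was not tested.

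The balance between paralogues was compared within each sample, as the difference of their log2(FPKM + 1). Cdx2 made up 9.51%, 33.7% and 31.7% of the summed FPKM of Cdx1 and Cdx2 in DSS 1, 2 and 3, against 8.66%, 8.02% and 12.6% in control 1, 2 and 3. The log2 balance of Cdx2 over Cdx1 was higher by 1.42 in DSS colon (exact permutation test, two-sided p = 0.2, adjusted p = 0.3 over 3 pairs). Hnf4g made up 5.95%, 10.2% and 5.86% of the Hnf4 pair in DSS 1, 2 and 3, against 2.41%, 5.66% and 4.52% in control 1, 2 and 3, so that its share was higher in all 3 DSS samples. Its log2 balance over Hnf4a was higher by 0.86 (two-sided exact permutation p = 0.1, which 3 against 3 samples cannot go below, adjusted p = 0.3). Klf4 over Klf5 differed by 0.05 (exact permutation test, p = 0.9), although the DSS samples were spread from 1.14 in DSS 1 to 2.65 in DSS 3 and the control samples from 1.61 to 2.11. Gata4 was too low for a ratio to be read.

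**Figure D3:**
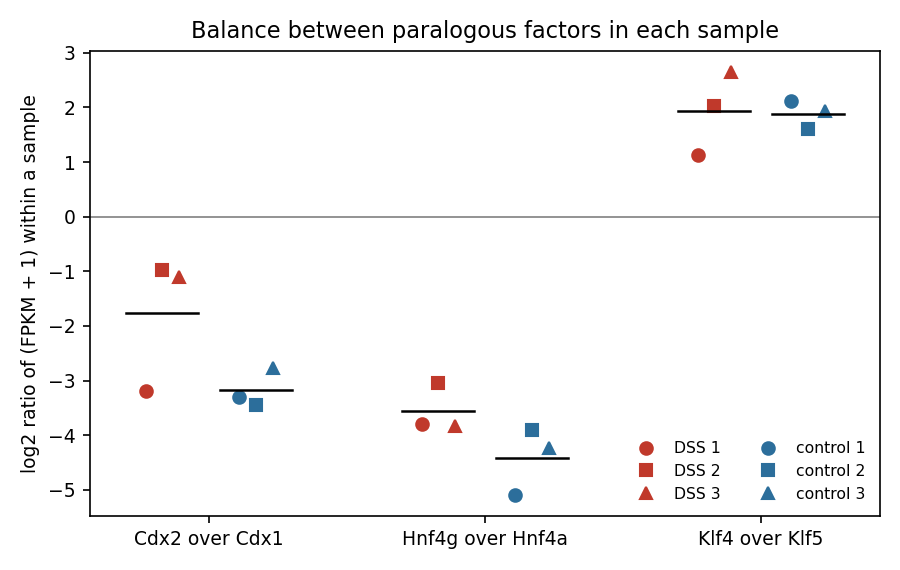
log2 ratio of (FPKM + 1) of 2 paralogues in each sample, with DSS in red, control in blue and group means as bars. The Hnf4g over Hnf4a ratio is higher in the 3 DSS samples, and for Cdx2 over Cdx1 DSS 1, at -3.19, lies with the control samples.

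Other transcription factors of gut epithelium were mostly not called. Of 25 partner factors 23 were tested, of which Isx and Creb3l3 rose, none fell and 21 were not called. The share called, 8.70%, was close to the 8.90% over all tested genes. The median log2 fold change of the 23 was 0.13, close to that over all tested genes. Isx, an intestine-specific homeobox factor that represses vitamin A uptake and lies downstream of Cdx2 in mouse, had 24.5, 123.3 and 84.1 FPKM in DSS samples 1, 2 and 3, against 3.76, 1.24 and 4.40 FPKM in control samples 1, 2 and 3. Every DSS sample was above every control sample, with DSS 1 the lowest of the 3. Isx was higher by a log2 fold change of 4.06 ± 0.62 (SE, adjusted p = 0.0139, limma), and the call was lost without DSS 3 or any control (adjusted p up to 0.0542). Creb3l3, a membrane-bound factor of fat and lipoprotein metabolism, had 12.4, 9.26 and 6.64 FPKM in DSS samples 1, 2 and 3, against 2.58, 1.24 and 1.32 FPKM in control samples 1, 2 and 3. It was higher by a log2 fold change of 1.94 ± 0.28 (SE, adjusted p = 0.00802, limma), and the call held under all 15 alternatives (adjusted p up to 0.0465). The factors next in order of p did not pass. Grhl2, which maintains epithelial junctions, had 8.05 ± 1.46 FPKM in the DSS samples and 5.65 ± 0.691 FPKM in control colon (SD, n = 3 each, adjusted p = 0.171, limma), and Prdm1, a repressor of the fetal gut and of lymphocytes, had 2.56 ± 1.38 FPKM in the DSS samples and 1.30 ± 0.0759 FPKM in control colon (adjusted p = 0.262).

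Among 26 paralogues of the 9 factors, 14 were tested, Klf2 rose, Klf9 fell and 12 were not called (median log2 fold change -0.09). The share called was 14.3%, against 8.90% over all tested genes. Klf9, a target of glucocorticoid and thyroid hormone signals, had 10.6, 6.58 and 7.81 FPKM in DSS samples 1, 2 and 3, against 18.8, 18.2 and 18.6 FPKM in control samples 1, 2 and 3. The groups were apart, and the log2 fold change was -1.09 ± 0.19 (SE, adjusted p = 0.0152, limma, and up to 0.0716 without DSS 3 or any control). Klf2, known for endothelial and lymphocyte quiescence, had 16.7, 18.5 and 22.2 FPKM in DSS samples 1, 2 and 3, against 11.8, 8.34 and 11.9 FPKM in control samples 1, 2 and 3 (log2 fold change 0.79, adjusted p = 0.0451, limma). Its call was lost in 11 of 15 alternatives, with adjusted p up to 0.142. Klf16 had 4.91 ± 0.109 FPKM in the DSS samples and 3.08 ± 0.188 FPKM in control colon (SD, n = 3 each, adjusted p = 0.069, limma), and Klf6, an early response factor, had 47.8 ± 6.11 FPKM in the DSS samples and 78.2 ± 21.3 FPKM in control colon (adjusted p = 0.089). Cdx4, Gata1, Klf14 and Elf5 were listed at 0 in every sample. Ehf, the epithelial relative of Elf3, had 73.9, 59.4 and 69.3 FPKM in DSS samples 1, 2 and 3, against 63.6, 77.8 and 77.4 FPKM in control samples 1, 2 and 3 (adjusted p = 0.683, limma). Ehf was singled out after its values were seen.

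Genes that Cdx and Hnf4 factors are known to act on moved in both directions. Of 28 such genes 22 were tested, of which Slc26a3, Dpp4, Slc15a1 and Cdhr5 fell, Guca2b rose and 17 were not called. The share called was 22.7%, against 8.90% over all tested genes. The median log2 fold change of the 22 was -0.27, against 0.13 over all tested genes. Slc26a3, the chloride and bicarbonate exchanger of colonic surface cells, had 179, 179 and 183 FPKM in DSS samples 1, 2 and 3, against 927, 500.5 and 718 FPKM in control samples 1, 2 and 3. The groups were apart and the DSS samples nearly equal, with a log2 fold change of -1.94 ± 0.22 (SE, adjusted p = 0.00305, limma, and up to 0.0217 over all alternatives). Slc15a1, a peptide transporter of the brush border, had 12.8, 1.21 and 1.85 FPKM in DSS samples 1, 2 and 3, against 64.4, 70.4 and 65.3 FPKM in control samples 1, 2 and 3. Dpp4, a brush border peptidase that shares exonic bases with another annotated gene, had 2.05, 3.36 and 2.74 FPKM in DSS samples 1, 2 and 3, against 7.41, 7.18 and 6.40 FPKM in control samples 1, 2 and 3. The protocadherin gene Cdhr5, which spaces microvilli, had 127, 98.6 and 88.7 FPKM in DSS samples 1, 2 and 3, against 214, 168 and 181 FPKM in control samples 1, 2 and 3. The log2 fold change was -3.93 for Slc15a1 (adjusted p = 0.0165), -1.12 for Dpp4 (0.0144) and -0.84 for Cdhr5 (0.0313, all limma), and each call was lost when any control was left out (up to 0.108). The calls of Slc15a1 and Cdhr5 were also lost without DSS 3, and that of Cdhr5 without DSS 2 or with no filter on low values. Cdh17, an intestinal cadherin and a textbook Cdx2 target in mouse, had 231, 190.3 and 176 FPKM in DSS samples 1, 2 and 3, against 387, 201 and 215 FPKM in control samples 1, 2 and 3 (adjusted p = 0.393, limma).

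In several of these genes DSS 1 was the lowest of the DSS samples, as it was for Cdx2, but it was the highest of them for Slc15a1 and Cdhr5. Over all tested genes DSS 1 was also the DSS sample nearest the control samples on the first principal component. Guca2b, which encodes uroguanylin, had 16.8, 60.5 and 37.3 FPKM in DSS samples 1, 2 and 3, against 8.06, 9.18 and 11.3 FPKM in control samples 1, 2 and 3 (log2 fold change 1.74 ± 0.42 SE, adjusted p = 0.0498, limma). Its call was lost in 11 of 15 alternatives (adjusted p up to 0.147). Fabp2, the intestinal fatty acid binding protein, had 107, 1057 and 727 FPKM in DSS samples 1, 2 and 3, against 122.6, 113 and 136 FPKM in control samples 1, 2 and 3. Alpi, intestinal alkaline phosphatase, had 1.03, 9.85 and 10.7 FPKM in DSS samples 1, 2 and 3, against 0.214, 0 and 0.379 FPKM in control samples 1, 2 and 3. Muc2, the gel-forming mucin of goblet cells, had 210.4, 382 and 872 FPKM in DSS samples 1, 2 and 3, against 215, 135 and 209.6 FPKM in control samples 1, 2 and 3. DSS 1 lay below every control sample for Fabp2, within the control range for Muc2 and above every control sample for Guca2b and Alpi. Without DSS 1 a total of 6 target genes were called higher, namely Guca2b, Fabp2, Alpi, Muc2, Mogat2 and Car1, and 4 lower, against 1 higher and 4 lower with it. Leaving out DSS 1 also raised the calls over all tested genes, to 9.43% higher and 4.91% lower. Likewise 3 partner factors (Ppara besides Isx and Creb3l3), and 2 paralogues higher (Klf2 and Spdef) and 2 lower (Klf9 and Klf3), were called without DSS 1. Car1 and Prom1 have near-identical copies, and Grhl2, Mogat2, Cldn3, Fxyd3 and Selp share exonic bases with other genes, so their values are uncertain. These 6 target genes, Cdh17, Ppara, Spdef and Klf3 were singled out after their values were seen. Sis, Lct, Fabp1, Apoa1, Apoa4 and Apoc3, genes of the small bowel programme, stayed under the filter and did not exceed 1.5 FPKM in any sample.

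**Figure D4:**
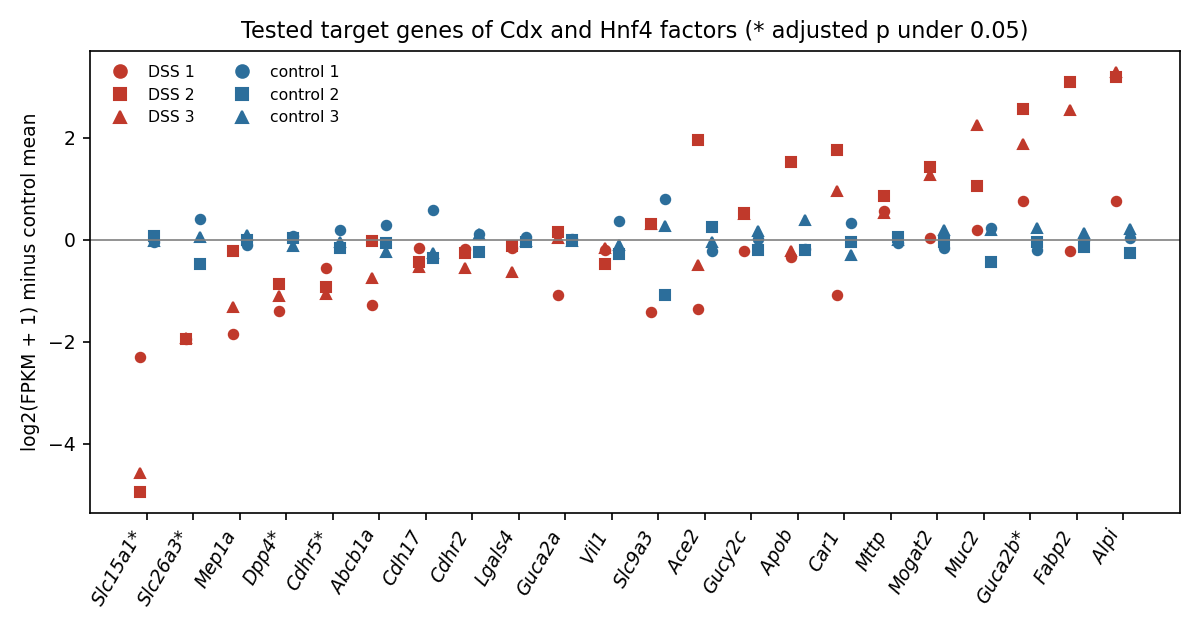
Difference of log2(FPKM + 1) from the control mean for the 22 tested target genes in each sample, ordered by fold change, with DSS in red and control in blue and asterisks on the 5 called genes. The DSS samples of Slc26a3 coincide, whereas for Fabp2 and Alpi DSS 2 and DSS 3 lie far above DSS 1.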

How the data were processed

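The authors deposited FPKM per gene for each sample, per the file headers. The submitters' processing notes name TopHat2 2.1.1 and mm10. Which program computed FPKM is not given in the sources used here. A non-directional second-strand module is named per the labels' protocols, so strand was taken as not recorded. Read depth is unknown, so no count interval is given.

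The filter kept genes that reached 1 FPKM in 3 or more samples. Their log2(FPKM + 1) values in all 6 samples were fitted on group with limma 3.58.1 under R 4.3.3, using trended, robust moderation and two-sided tests with Benjamini-Hochberg adjustment over all tested genes. The design allowed for counts, and the limma form was used because the files hold FPKM. The fit was tested on 10 simulated sets, where 41% of 2-fold and 82.1% of 4-fold changes were recovered and 3.55% of calls were false. Intervals are 95% limma intervals. Values after ± without a name are SDs over 3 samples.

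The 9 factors and the gene lists were chosen with earlier results of these data known. Genes named are all 9 factors, the 4 smallest p in each of 3 lists (partner factors, paralogues, target genes), any gene a count of 5 or fewer rests on, the 2 most abundant of each marker list and the 3 nearest patterns to each tested factor, leaving out predicted genes. Some genes within the rule are left undescribed, and others named were chosen after their values were seen. Some members of the partner factor list are not reported here singly.

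GENCODE vM21 gave gene coordinates (GRCm38, to which mm10 corresponds), and promoter windows, matched by symbol for 4 of the 9 factors, came from RefSeq (GRCm38.p6). BLAST+ 2.17.0 searched GENCODE transcripts for near-identical copies at 95% identity over at least 200 bases, and none of the 9 factors had any.

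Replicate numbers were not taken as pairs, since nothing in the labels ties them. Alternatives changed the filter, pseudocount, scaling, moderation, replicate block and samples. For the tested factors the fit relative to the epithelial markers was counted among them too.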

Additional observations from a re-analysis of the deposited data

How the results depend on the processing

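Over 128 alternative fits of the 8 tested factors, 121 kept their direction and side of the threshold, 3 passed it and 4 changed sign. These include 1 fit per factor relative to the epithelial markers, and variants of that fit are counted apart below. The log2 fold change of Cdx1 turned to -0.071 under upper-quartile scaling, -0.094 under median-of-ratios scaling and -0.22 without control 1 (-0.22 to 0.25 with a sample left out), and that of Hnf4g to -0.018 without DSS 2 (-0.018 to 0.35). The count of factors called lower was 1 (Hnf4a) under the upper-quartile and the median-of-ratios rescaling. With each sample left out in turn, 0 to 1 factors were called higher (Cdx2, without DSS 1) and 0 to 0 lower. A further 64 fits varied the fit relative to the epithelial markers. Compared with that fit, 52 kept their direction and side of the threshold, 4 passed it and 8 changed sign. Relative to the epithelial markers 2 factors were called higher with Epcam, Cdh1 and Krt8 alone, 1 (Cdx2, adjusted p = 0.0144, limma) with the replicate block, and 0 to 1 with a sample left out. The share of all tested genes called in these fits is not available here. There Klf4 turned to 0.24 with those 3 markers, 0.14 without DSS 1 and 0.083 without control 3 (-0.16 to 0.14 with a sample left out), Klf5 to 0.18 with those 3 markers, 0.18 without DSS 3 and 0.0085 without control 3 (-0.31 to 0.18), and Elf3 to 0.25 with those 3 markers and 0.22 without control 3 (-0.29 to 0.22). The cause of these changes was not tested.

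Over all genes, 513 were called lower under median-of-ratios scaling. With a sample left out the counts were 209 to 1165 higher and 79 to 606 lower, highest without DSS 1 and lowest without control 2. No paralogue was called higher (0) without the filter, with it at 0.1 FPKM, under the 3 rescalings or with the block. No target gene was called higher (0) without the filter or under the 3 rescalings, and 2 were without trend and robust moderation. With a sample left out, 1 to 3 partner factors, 0 to 2 paralogues and 0 to 6 target genes were called higher, and 0 to 0, 0 to 2 and 1 to 4 lower.

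With the replicate number as a block, 640 genes were called higher and 255 lower, and Cdx2 had adjusted p = 0.0605 and Hnf4a 0.075 (limma). Deviations of same-numbered samples correlated across genes at 0.082, 0.13 and 0.0031, and those of differently numbered samples at -0.11 to 0.034. With so few samples these values cannot decide whether same-numbered samples shared a batch or a pairing. The log2 balances moved by less than the spread between replicates in all 24 alternatives, from 1.02 to 2.14 for Cdx2 over Cdx1, 0.52 to 1.11 for Hnf4g over Hnf4a and -0.30 to 0.45 for Klf4 over Klf5 with a sample left out. Depth is unknown, so no limit from counting can be given.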

Other observations

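The genes nearest in pattern to each tested factor were sought over the 6 samples, by the root mean square difference of centred log2(FPKM + 1), as a description with no test. For Cdx2, whose own values spread by 1.12 log2 units by the same measure, they were Gpt, a transaminase, at a difference of 0.23, Cldn15, a claudin of paracellular sodium flow, at 0.28, and Adra2a, an adrenergic receptor, at 0.29. Gpt had 9.05, 62.2 and 53.9 FPKM in DSS 1, 2 and 3, against 9.08, 9.99 and 17.6 FPKM in control 1, 2 and 3. Cldn15 had 35.4, 95.7 and 115 FPKM in DSS 1, 2 and 3, against 19.2, 30.6 and 42.05 FPKM in control 1, 2 and 3. Adra2a had 1.28, 14.6 and 12.1 FPKM in DSS 1, 2 and 3, against 0.708, 1.41 and 2.07 FPKM in control 1, 2 and 3. In each of the 3 genes DSS 2 and DSS 3 stood above every other sample, as in Cdx2, to whose pattern the genes were matched.

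For Hnf4a, whose own spread was 0.35, the nearest were Tor3a at 0.079, Sprr2a2, which has a near-identical copy, at 0.081, and Zfp36, which destabilises cytokine transcripts, at 0.085. Zfp36 had 36.4, 36.5 and 44.2 FPKM in DSS 1, 2 and 3, against 67.8, 48.4 and 57.2 FPKM in control 1, 2 and 3 (adjusted p = 0.0895, limma). For Klf4 they were Gadd45a, Slc37a1 and Dgkh, for Klf5 Ace, Eif4ebp2 and Zscan25, and for Elf3 Mmp11, Irf2bpl and Adgra2. For Cdx1 they were Mrpl43, Bcl6 and Ing4, for Hnf4g Cir1, Cdc14a and Crebrf, and for Gata6 Fbxo7, Cnot6l and Nfs1.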
